A study of Mus musculus with 12 samples.

Results

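The regions described here were called open among the 34810 highest-scoring sites of nearly every library of aged hematopoietic stem cells (HSCs), in both genotypes. Each was called at that rank in at most 1 young library, although many had lower-ranking summits in young HSCs. ATAC-seq marks open chromatin, because a transposase cuts and tags DNA that is not covered by nucleosomes. The HSCs were CD150+ CD48- Flk2- Lin- Sca1+ cKit+ cells from the bone marrow of C57BL/6 mice. There were 12 libraries in 4 groups of 3, namely wild-type (WT) mice at 3 months (young WT), Mlkl-/- mice at 3 months (young Mlkl-/-), WT mice at 18 months (aged WT) and Mlkl-/- mice at 18 months (aged Mlkl-/-). Mlkl encodes a pseudokinase known for executing necroptosis, an inflammatory form of cell death, and Mlkl-/- mice lack it. Each library pooled the HSCs of several mice, with more mice in the young pools, so p-values below measure the spread between pools.

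A region was chosen when it had a peak summit in at least 5 of the 6 lists of 18 months and in at most 1 of the 6 lists of 3 months. Each list had first been cut to its 34810 highest scores, the length of the shortest list, and overlapping windows reaching 250 bp to either side of each summit had been merged over the lists. The rule kept 990 of 51416 regions on chromosomes 1 to 19, or 1.93%. The same rule with the ages exchanged kept 722 regions, or 1.40%, which are called lost regions below. The regions were thus chosen by their summits at the 2 ages, and so every value that compares the ages in them is a description and was not tested.

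Most open DNA in a cell lies at promoters, at enhancers or at the binding sites of the insulator protein CTCF. Promoters that sit in CpG islands are open in nearly every cell type, whereas distal enhancers are opened by transcription factors particular to a cell state. In HSCs such factors include RUNX1, GATA2, TAL1, the ETS family and MEIS1, and AP-1 (FOS and JUN dimers) is induced by stress and cytokines. Aging HSCs are known for reduced lymphoid output, a bias toward platelets and myeloid cells and a raised response to inflammatory signals.

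The sequences of the 8 regions with the largest difference between the ages show what such a region looks like, and the Ptprk and Socs1 regions are added because they were the only ones whose nearest transcription start belonged to a gene on the lists of HSC, lineage and signaling genes used here. Each is the reference sequence (mm10, forward strand) that reaches 100 bp to either side of the highest summit. Capitals mark matches, on either strand, to the motif letters of 6 factor families, and a sequence with no capitals had no match. The letters searched were TGANTCA for AP-1 and TGTGGTT for the RUNX factors. They were AGATAA for the GATA factors, AGGAAGT for the large ETS family and TTCNNNGAA for the STAT factors of cytokine signaling. For the interferon regulatory factors (IRF) a pair of GAAA repeats was used. Names are those of the genes with the nearest start, many of which are unnamed gene models (Gm).
Kcna4: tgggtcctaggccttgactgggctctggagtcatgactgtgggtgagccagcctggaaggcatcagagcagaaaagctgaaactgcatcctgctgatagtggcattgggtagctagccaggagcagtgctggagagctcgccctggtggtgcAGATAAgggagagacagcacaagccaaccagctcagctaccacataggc
Gm5815: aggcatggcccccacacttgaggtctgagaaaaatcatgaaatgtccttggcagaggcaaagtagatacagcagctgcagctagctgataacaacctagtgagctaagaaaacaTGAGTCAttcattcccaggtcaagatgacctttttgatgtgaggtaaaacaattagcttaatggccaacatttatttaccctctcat
Farp1: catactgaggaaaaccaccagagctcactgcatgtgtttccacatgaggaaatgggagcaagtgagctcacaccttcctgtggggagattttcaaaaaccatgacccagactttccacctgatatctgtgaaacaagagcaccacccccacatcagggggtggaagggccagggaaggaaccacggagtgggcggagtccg
Gm29327: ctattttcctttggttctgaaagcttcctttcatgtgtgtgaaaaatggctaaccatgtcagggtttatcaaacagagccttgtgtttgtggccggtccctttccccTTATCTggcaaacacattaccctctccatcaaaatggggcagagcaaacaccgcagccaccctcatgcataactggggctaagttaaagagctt
Trhr: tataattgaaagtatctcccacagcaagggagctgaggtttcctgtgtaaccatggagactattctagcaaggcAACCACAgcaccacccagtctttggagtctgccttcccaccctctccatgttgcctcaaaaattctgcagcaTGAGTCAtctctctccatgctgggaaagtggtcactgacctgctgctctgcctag
Gm38839: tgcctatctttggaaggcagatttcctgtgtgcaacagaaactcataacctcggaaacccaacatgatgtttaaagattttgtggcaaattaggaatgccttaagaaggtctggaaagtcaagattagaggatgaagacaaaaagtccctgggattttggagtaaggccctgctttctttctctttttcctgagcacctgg
Gm11901: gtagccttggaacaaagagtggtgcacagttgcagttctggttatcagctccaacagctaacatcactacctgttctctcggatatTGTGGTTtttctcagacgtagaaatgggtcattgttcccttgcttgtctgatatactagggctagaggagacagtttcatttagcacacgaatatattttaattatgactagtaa
Gm22324: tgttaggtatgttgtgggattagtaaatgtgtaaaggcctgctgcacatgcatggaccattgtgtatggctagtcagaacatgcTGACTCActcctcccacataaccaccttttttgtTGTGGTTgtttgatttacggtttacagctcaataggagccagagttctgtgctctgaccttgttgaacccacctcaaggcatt
Ptprk: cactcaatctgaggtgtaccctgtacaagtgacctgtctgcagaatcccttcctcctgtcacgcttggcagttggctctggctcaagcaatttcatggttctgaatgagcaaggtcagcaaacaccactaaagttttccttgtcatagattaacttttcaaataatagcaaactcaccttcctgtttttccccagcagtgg
Socs1: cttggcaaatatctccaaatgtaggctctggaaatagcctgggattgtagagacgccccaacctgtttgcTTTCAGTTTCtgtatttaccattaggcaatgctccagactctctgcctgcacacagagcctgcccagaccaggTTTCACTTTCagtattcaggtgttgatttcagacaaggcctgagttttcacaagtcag
In order, these windows are chr2:107231793-107231993, chr17:58643949-58644149, chr14:121102691-121102891, chr7:70274405-70274605, chr15:44176056-44176256, chr6:81738221-81738421, chr4:27508583-27508783, chr8:62793521-62793721, chr10:28105343-28105543 and chr16:10741200-10741400. The Trhr and Gm22324 windows each held a RUNX and an AP-1 match. The Socs1 window held 2 IRF matches. Farp1, Gm38839 and Ptprk had none of the 6 motifs.

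The HSC identity of the lists was read from summits within 1 kb of marker starts. Kit and Hlf had one in 12 of 12 lists, Procr in 9 (3 young and 6 aged), Ly6a in 6 and Mecom in 5 (1 young and 4 aged), whereas Slamf1, which encodes the CD150 used for sorting, had none. The T cell markers Cd3e, Cd3d, Cd8a and Zap70 and the B cell markers Cd79a, Pax5 and Ms4a1 had no summit in any list. Of the granulocyte and monocyte markers S100a8, S100a9 and Ly6g had none, and Cd14 had a summit in 3 young and 6 aged lists. Of the erythroid markers Slc4a1, Klf1 and Hba-a1 had none. The platelet genes Gp9, Gp1ba and Pf4 were open in 12 of 12 lists and Tubb1 in 4 young and 6 aged lists. Of the endothelial and stromal markers Cdh5 had none, Col1a1 had a summit in 6 young and 5 aged lists, and Cxcl12 and Lepr each in 2 aged lists. The unreduced lists held 34810 to 54954 autosomal summits with a score of 3 or more at 3 months and 45789 to 59884 at 18 months. Summits at the starts of Y-linked genes were present in 3 of 6 young lists and in 0 of 6 aged lists. The part of these differences in the regions below was not tested. Leaving out the 3 young lists with Y-linked summits, and then allowing no young list, gave 1160 regions that included 836 of the 990. That overlap followed almost wholly from the rule, because a region failed mainly when its 1 young summit lay in a list that was kept.

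In the lists of equal length, the young WT libraries held 61, 49 and 43 of the 990 regions and the young Mlkl-/- libraries 74, 158 and 55. The aged WT libraries held 902, 750 and 929 and the aged Mlkl-/- libraries 947, 928 and 942. One library stood apart within each age, namely young Mlkl-/- replicate 2 on the high side and aged WT replicate 2 on the low side. Of the 990 regions, 259 had a summit in every aged list and in no young one, 189 in 6 aged lists and 1 young list, 291 in 5 and 0, and 251 in 5 and 1. When a region was missing from 1 aged list, that list was aged WT replicate 2 in 240 of 542 cases. Where called, the regions lay in the weaker part of the aged lists. Their median score (−log10 of the q-value of the peak caller) was between 9.86 and 15.1 in the aged lists. Over all regions called in an aged list the median was 12.8 to 19.1, and in each aged list it was the higher value. The median place of the opened regions lay between the 29.2 and 42.7 percentile of the list, counted from its weakest summit.

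**Figure D1:**
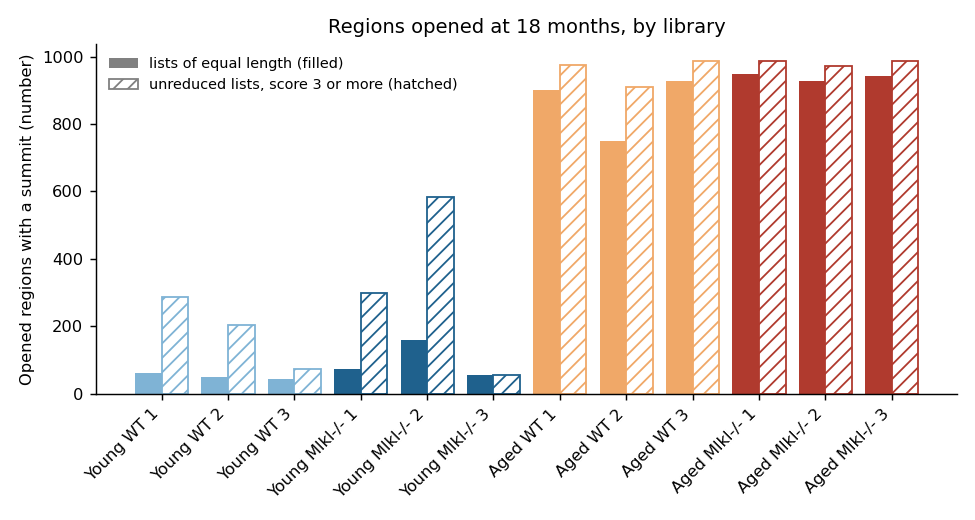
Number of the 990 regions opened at 18 months (y axis) that held a summit in each of the 12 libraries (x axis). Filled bars are the lists of equal length that the rule used, from 43 to 158 regions in young and from 750 to 947 in aged libraries, and hatched bars are the unreduced lists at a score of 3 or more, where young libraries reached 55 to 582.

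Many of the regions were not closed in young HSCs, as lower-ranking summits show. In the unreduced lists at a score of 3 or more, the young WT libraries held 287, 203 and 72 of the regions and the young Mlkl-/- libraries 300, 582 and 55. When every deposited summit was read, 263 regions (26.6%) had a summit in no young list, 232 in 1, 217 in 2 and 278 in 3 or more. The 263 regions without any young summit had a median GC content of 45.8%, and 26.2% of them lay over 50 kb from a transcription start. Regions with a summit in 3 or more young lists had a median GC content of 49.8%, and 14% of them lay that far away.

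The strongest region lay on chr2:107231635-107232159, in intergenic DNA 58.7 kb upstream of Kcna4, which encodes a voltage-gated potassium channel. Its scores were 44.5, 51.2 and 61.1 in the aged WT libraries and 69.0, 56.2 and 62.3 in the aged Mlkl-/- libraries, and none of the 6 young lists held a summit of any score there. The mean normal score, in which each list's regions are ranked and the ranks placed on a normal scale, was 2.38 ± 0.43 (SD, n = 6) at 18 months and -0.77 ± 0.03 (SD, n = 6) at 3 months, the latter being the value of a region that is not called. The difference of 3.15 stood well above the 2.36 of the second region. That one lay on chr17:58643557-58644313 near the pseudogene Gm5815 and scored 25.6 to 53.0 in the aged lists, again with no young summit.

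The other 8 of the 10 regions with the largest differences were at 1.98 to 2.19, and all 8 were in 6 of 6 aged lists. One lay in an intron of Farp1, a guanine nucleotide exchange factor of the FERM family, with scores of 26.1 to 51.1 in aged lists and 4.27 in 1 young list. Another lay 20 kb upstream of Trhr, the receptor of thyrotropin-releasing hormone, with aged scores of 18.8 to 48.6 and no young summit. A pair had a gene of the COUP-TF orphan nuclear receptors as the nearest protein-coding gene. The region near Gm29327 was 86.1 kb from the start of Nr2f2 and the region near Gm48470 was 1244 kb from that of Nr2f1, and neither had a young summit. The region near Gm11901 was the exception among the 10, with a summit of low score (3.21 to 6.90) in 4 of 6 young lists against 21.9 to 41.8 in the aged lists. For every one of the 10 the lowest aged score exceeded the highest young score. Within the aged libraries the 2 genotypes overlapped in normal score at 9 of the 10 regions. The exception was Gm5815, with 1.38 ± 0.19 in WT and 1.80 ± 0.02 in Mlkl-/- libraries (SD, n = 3 each). Its raw scores did overlap, at 37.3 in aged WT replicate 1 and 37.0 in aged Mlkl-/- replicate 2. Over the 37112 regions called in at least 3 lists, the Mlkl-/- values were all above the WT values in 4.66% and all below in 6.05%.

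**Figure D2:**
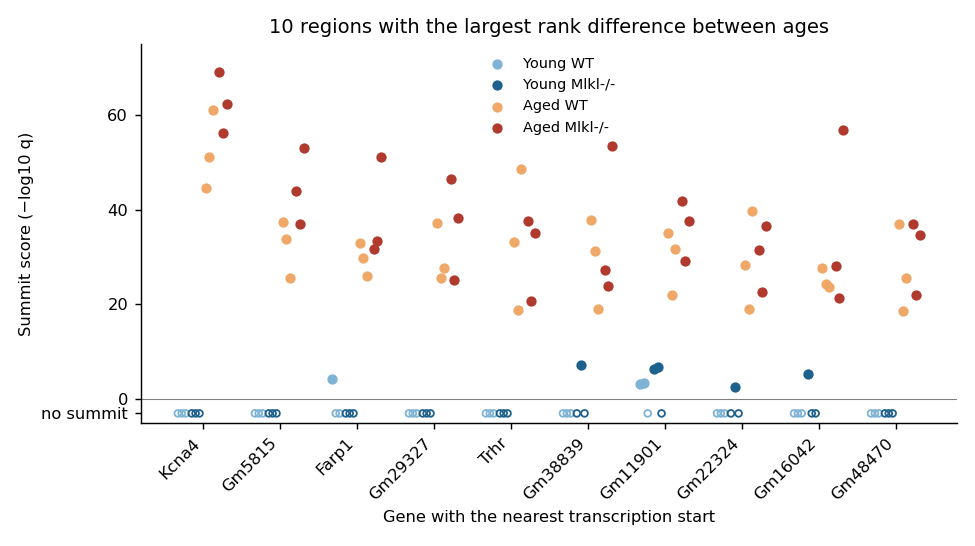
Summit scores (y axis, −log10 q; open symbols mark libraries without a summit) in the 12 libraries for the 10 regions with the largest difference in mean normal score, named on the x axis by the gene with the nearest start. Aged libraries lie between 18.7 and 69.0, and the few young summits lie at 7.24 or below.

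At the other end of the rule, the smallest differences were 0.31 near Slc25a34, 0.34 near Thumpd2 and 0.40 in an intron of Sestd1. The first pair had a high score in young Mlkl-/- replicate 2 (24.4 and 25.2) that exceeded every aged score. Just outside the rule stood 797 regions in 4 aged lists and at most 1 young list, with a median difference of 0.56, and 593 regions in 5 or 6 aged lists and 2 young lists, with a median of 0.64. The median over the 990 regions was 0.93 and over all regions -0.01. The largest differences just outside were 1.67 near Gm34768, 1.59 near 4933406D12Rik and 1.58 near Gm48053, each in 6 aged and 2 young lists.

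The regions lay away from promoters. Only 80 of 990 (8.08%, exact 95% binomial interval 6.46 to 9.96) had a transcription start within 1 kb, against 30.7% of all regions and 16.9% of the lost regions. At the far end 189 (19.1%, interval 16.7 to 21.7) were over 50 kb from any start, against 8.90% of all regions and 8.45% of the lost regions. Introns held 480 (48.5%) and intergenic DNA 403 (40.7%), and 27 lay in exons away from a start. The median distance to a start was 16.5 kb for any gene and 48.5 kb for a protein-coding gene, against 6.72 and 14.3 kb over all regions. The nearest start was that of a protein-coding gene for 38.5% of the regions and that of a processed pseudogene for 18.1%, against 58.4% and 9.85% of all regions. These intervals cover counting only, and neighbouring regions are not independent.

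**Figure D3:**
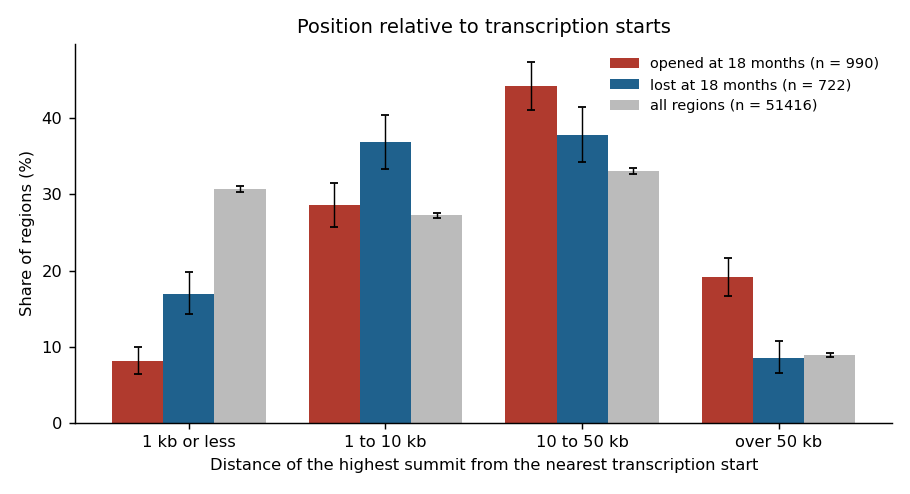
Share of regions (y axis, %) by distance of the highest summit from the nearest annotated transcription start (x axis) for 990 opened, 722 lost and 51416 catalogue regions, with exact 95% binomial intervals as error bars. Opened regions have the smallest share within 1 kb, 8.08%, and the largest share over 50 kb, 19.1%.

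Their width was close to that of all regions, whereas their base composition differed. The median width was 567 bp (509 to 1315) against 578 bp for all regions, and 565 against 556 bp among regions over 1 kb from a start. Width is the fixed 250 bp to either side plus the spread of summits over the lists, so it does not measure the size of a peak. Averaged over the lists of both ages, 989 of 990 had no more than 1 summit a list, against 80.1% of all regions. That share followed largely from the rule, which allowed a summit in at most 1 young list. How many summits a region had in the lists that called it cannot be read from it. Median GC content within 100 bp of the summit was 47.8% against 52.7% of all regions. Among regions over 1 kb from a start it was 46.8% against 50.2%, so the gap was present away from promoters as well. The windows held 3.32 CpG dinucleotides on average against 7.33, and 2.86 against 3.84 among regions over 1 kb from a start. Windows made mostly of repeats were no more frequent than elsewhere, whereas windows with some masked sequence were. Soft-masked sequence filled over 50% of the window in 29 regions (2.93%, interval 1.97 to 4.18), against 3.43% of all regions and 4.85% of the lost regions. Windows without a masked base made up 42.3% against 50.6%, and the median masked share of a window was 9.45% against 0% over all regions (means 11.2% and 10.1%). Among regions over 1 kb from a start the gap was smaller, with 40.9% against 45.1% without a masked base. There the median masked share was 9.95% against 6.97%, and the mean was slightly lower in opened regions (11.6% against 11.8%).

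Matches to RUNX and AP-1 letters were more frequent in opened regions than in the catalogue. Among the 910 opened regions over 1 kb from a start, 20.5% (interval 18.0 to 23.3) held a RUNX match against 13.4% of the 35608 distal regions, and 17.9% (15.5 to 20.6) held an AP-1 match against 12.9%. Either one was present in 35.2% against 24.6%, and both in 3.30% against 1.72%. Lost regions had like shares, 20.2% for RUNX and 17.2% for AP-1, so a higher share was not particular to opening. RUNX proteins are regulators of HSC formation and of platelet and lymphoid fates.

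The motifs of the HSC factors differed in another way between opened and lost regions. The ETS letters were in 17.1% of distal opened and 25.2% of distal lost regions, and in 19.6% of all distal regions. For the TAL1-type E-box (CAGATG) these shares were 13.5%, 24.7% and 16.9%, for MEIS (TGACAG) 12.9%, 22.3% and 15.6%, and for GATA 12.4%, 18.5% and 11.5%. For each of these 4 motifs the exact intervals of opened and lost regions did not overlap. Distal opened and lost regions also differed in median GC content, at 46.8% and 51.2%, and lost regions were not split by GC. Against all distal regions, the ETS, E-box and MEIS shares of opened regions were lower in some GC bands and not in others. STAT letters were in 8.02% of distal opened regions against 6.10% of distal regions, and IRF letters in 5.93% against 4.14%. Nuclear receptor sites (AGGTCA) were in 14.2% against 12%, and NF-kB letters in 0.22% against 0.40%. CTCF letters were in 1.43% of distal opened and 1.67% of distal lost regions, and in 5.89% of all distal regions. SP/KLF letters (GGGCGG) were in 5.27% against 9.04%. Both strands were searched, and matches to different motifs may overlap.

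**Figure D4:**
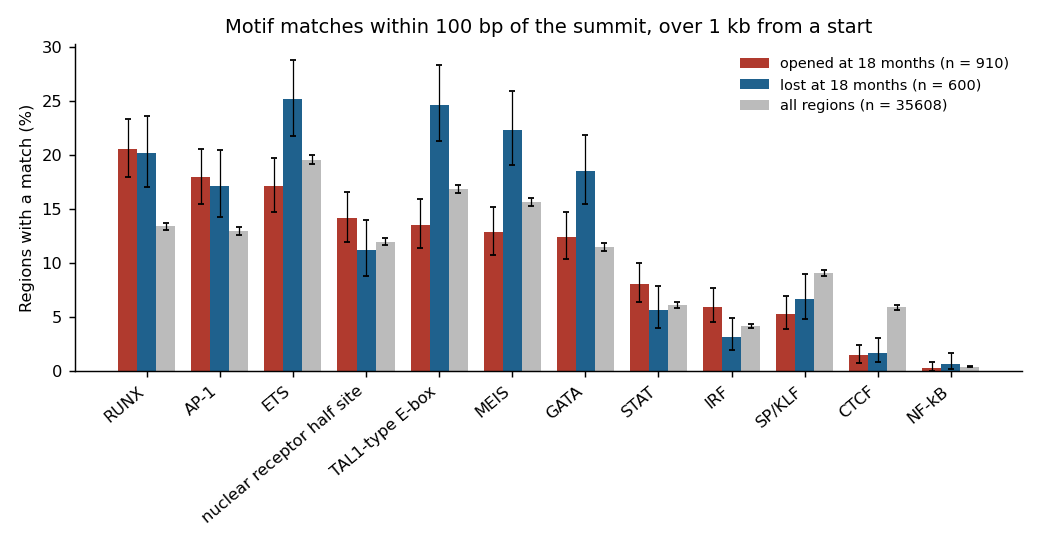
Share of regions over 1 kb from a transcription start (y axis, %) with at least 1 match to each motif (x axis) within 100 bp of the highest summit, in opened (910), lost (600) and all such regions (35608), with exact 95% binomial intervals. RUNX and AP-1 stand above all regions in both opened and lost regions, while E-box, MEIS and GATA matches are more frequent in lost than in opened regions.

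Base composition moved with these shares. In windows under 40% GC, 34 of 100 distal opened regions held RUNX letters against 19.6% of distal regions, and from 40 to 45% GC the shares were 25.4% and 18.8%. From 45 to 50% GC they were 20% and 15%, and from 50 to 55% GC 16.5% and 12.5%. At 55% GC or more they were 5.61% and 7.27%. For AP-1 the opened regions were higher in the same 4 lower bands, with 23% against 13.4% in the lowest, and were 9.35% against 10.3% in the highest. IRF letters were more frequent in the opened regions in the band from 45 to 50% GC (8.68% against 4.83%) and close to the distal regions from 40 to 45% (6.97% against 6.68%). In the other 3 bands they were less frequent, with 8.0% against 9.28% under 40% GC, 2.58% against 2.98% from 50 to 55% and 0.935% against 1.69% above. STAT letters were more frequent in 4 of 5 bands and less so from 45 to 50% GC (6.04% against 6.80%). When all words of 6 letters were counted, the largest gap between distal opened and other distal regions was that of AGGAAA. It was present in 50.1% against 34.3%, and it shares AGGAA with the ETS letters AGGAAGT. The lower ETS share above therefore holds for those full letters only. AAACCA followed with 30.8% against 21.2%, AACCAC, a part of the RUNX letters on the other strand, with 29.9% against 21.7%, and AGTCAT, which shares letters with AP-1, had 21.1% against 13.4%.

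The opened regions were spread over the genome. They made up between 0.568% (chromosome 19) and 2.70% (chromosome 16) of the regions of a chromosome. Of 971 neighbouring pairs, 13 lay within 10 kb and 42 within 50 kb of each other. The nearest starts belonged to 951 different genes, 39 of which had 2 regions and none more. Counted by the nearest protein-coding gene, a link chosen after these values were seen, 14 genes had 3 or more. Cntnap2, a neurexin-family adhesion protein, had 4 of its 21 regions among the opened ones, and a gene on chromosome 18 had 4 of 12. Bcl2, which blocks apoptosis, had 3 of 13, all 157 to 195 kb from its start. Ptprk, a receptor tyrosine phosphatase, had 3 of 7, Ctsc, the protease cathepsin C, 3 of 11, Ptprz1, another receptor tyrosine phosphatase, 3 of 5, and Ryr2, a calcium release channel, 3 of 8. Nrxn3, Pou3f3, Gbe1, Gcfc2, Tmod3, 4931417E11Rik and Adam6a, each with 3, completed the 14.

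Promoters were rare among the regions, and 39 of 990 lay within 1 kb of a protein-coding start. Of these the 10 with the largest differences were at Ccdc85a, Prkcz, Neu2, Olig1, Asb4, Celf2, A530032D15Rik, Nr4a3, Fyb and Fam126a, with differences in mean normal score from 1.26 down to 0.96. At the promoter of Prkcz, an atypical protein kinase C, aged scores were 6.96 to 20.7 and 1 young list held a summit of 3.66. The region 0.9 kb from the start of Neu2, a sialidase, scored 12.7 to 17.6 in 5 aged lists, with no summit in aged WT replicate 2. Celf2, which encodes a regulator of splicing, had aged scores of 6.09 to 15.4 and no young summit of any score. Nr4a3, an early-response orphan nuclear receptor known for limiting HSC proliferation, scored 9.38 to 16.8 in the aged lists, and its promoter held summits of 2.5 to 10.8 in 4 young lists. At Fyb, an adaptor of T cells and platelets, aged scores were 7.16 to 14.8 and 3 young lists had 3.03 to 7.81. These promoters thus ranged from no young signal to summits in most young lists.

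Genes of HSC biology were seldom the nearest gene. Over 10 lists with 217 genes, 2 opened regions had a listed gene as the nearest start, and all other lists had 0. These 2 were among 585 pairs of a catalogue region and a list (0.342%), against 1.93% of all regions that were opened. The 72 catalogue regions assigned to the HSC aging list included 1 opened region, in an intron of Ptprk 30.6 kb from its start (chr10:28105148-28105754), with scores of 26.5, 21.5 and 24.2 in aged WT and 23.7, 10.5 and 18.1 in aged Mlkl-/- libraries and no young summit. The 75 assigned to interferon, NF-kB and cytokine receptor genes included 1, in an intron of Clec16a 44.2 kb from the start of Socs1 (chr16:10741047-10741637), which encodes an inhibitor of cytokine signaling. It scored 8.94 to 20.2 in the aged lists and 4.56 and 10.6 in 2 young lists. The 114 regions of HSC regulators, 61 of megakaryocyte and platelet genes, 41 of myeloid genes, 42 of lymphoid genes, 19 of erythroid genes, 64 of adhesion and niche genes, 27 of AP-1 genes and 70 of TGF-beta and BMP genes included none.

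By the nearest protein-coding gene, a link chosen after the values were seen, 12 of 1143 pairs (1.05%) were of opened regions. HSC aging genes had 4 of 102, 3 of them at Ptprk, and TGF-beta and BMP genes 3 of 153. HSC regulators had 2 of 244, interferon, NF-kB and cytokine receptor genes 2 of 126, lymphoid genes 1 of 122 and the other lists 0. Farther away, a start within 100 kb joined 2350 pairs of a catalogue region and a list. Of these, 18 (0.766%) were of opened regions, a share below the 1.93% of all regions that were opened. The pairs named here were chosen after their values were seen. An opened region lay in an intron of Runx1 at chr16:92644565-92645122, 51.3 kb from a start, with aged scores of 10.2 to 17.1. It was in none of the young lists of equal length but had a summit in 5 of 6 young lists when every score was read. Lmo2, a partner of TAL1 in HSC transcription, had one 80.3 kb upstream with aged scores of 10.5 to 15.8. Tal1 had one 98 kb upstream (8.95 to 18.7), Gata3, a regulator of T cell fate, one at 25.8 kb (11.2 to 18.1) and Smad3, a transducer of TGF-beta signals, one 45.4 kb upstream (7.89 to 21.3). Each of the last 3 regions was also called in young Mlkl-/- replicate 2, the young library with the most opened regions.

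Whether Mlkl loss altered the opened regions was asked with the normal scores, in a limma fit over the 37112 regions that were called in at least 3 lists. All 990 were tested. None passed a Benjamini-Hochberg adjusted p of 0.01 between the genotypes at 18 months (0% of all regions tested did), and the lowest adjusted p from limma was 0.80. Without adjustment 28 (2.83%) had p under 0.05, against 5.2% of all regions tested. The rule had required nearly all aged lists of both genotypes, which limits how far the genotypes can differ in these regions. It had also held the young values at or near the level of an uncalled region in both genotypes (medians -0.76 in WT and -0.78 in Mlkl-/-). The comparison of the age change between genotypes therefore used values the rule had fixed, and nothing is read from its counts of 0 at an adjusted p of 0.01 from limma (0% of all regions) and 3 (0.303%) at an unadjusted p under 0.05 (4.68% of all regions). The median standard error of a difference between the genotypes at 18 months was 0.33.

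As a group the regions stood slightly higher in aged Mlkl-/- than in aged WT libraries, and that rested on 1 library. The median difference was 0.16 (quartiles -0.09 and 0.36) against -0.01 over all regions tested, and 670 of 990 (67.7%, against 48.6% of all regions tested) were higher in Mlkl-/-. Without aged WT replicate 2 the median was 0.02 against -0.01. The 3 Mlkl-/- values were all above the 3 WT values in 78 regions (7.88%, against 4.66% of all regions) and all below in 44 (4.44%, against 6.05%).

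The largest differences between genotypes at 18 months were in introns of Unc5d, Ptprd and Deptor on the high side. The Unc5d region, in a netrin receptor gene, scored 7.93, 3.37 and 8.28 in aged WT and 15.8, 21.1 and 33.8 in aged Mlkl-/- libraries, without overlap, and the difference of 1.22 had an SE of 0.33 and an adjusted p of 0.80 by limma. In the intron of Deptor, an inhibitor of mTOR, the scores were 6.92, 7.54 and 9.92 against 25.7, 15.6 and 16.4, also without overlap (difference 0.95). In Ptprd the values were 11.6, 4.34 and 27.1 against 36.8, 29.0 and 23.4, which overlapped. The lowest WT value in each of the 3 regions was below the equal-length limit of its list. On the low side stood a region near Tap2, one 138 kb from the start of Foxa2 and one in an intron of Syn3. The first lay 15.4 kb from the start of Tap2, a peptide transporter of antigen presentation, held STAT and IRF letters, and scored 20.8, 15 and 18.7 in aged WT and 9.0 and 13.9 in 2 of 3 aged Mlkl-/- libraries, the third having no summit (difference -0.94, SE 0.36, adjusted p 0.90 by limma).

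**Figure D5:**
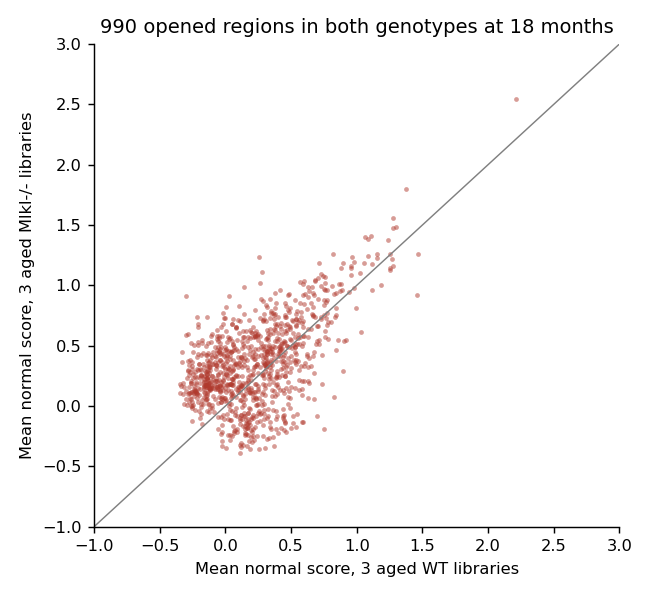
Mean normal score of each of the 990 opened regions in the 3 aged WT libraries (x axis) and the 3 aged Mlkl-/- libraries (y axis), with the line of equal values. Points lie on both sides of the line, 670 above it, with the Kcna4 region alone at the upper right (2.21 and 2.54).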

How the data were processed

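ATAC-seq libraries were single-read. Per the study's methods and the submitters' processing notes, the authors mapped reads to mm10 with Bowtie2 (2.5.3) and called peaks in each library alone with MACS2 (2.2.7.1). Each deposited file is a list of summits whose score is the −log10 q-value given by the authors' peak caller. Lists hold no reads, so the depth is unknown and no count model was used. How far a score reflects depth cannot be read from the lists.

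Summits with a score of 3 or more (q of 0.001) on chromosomes 1 to 19 were used, and ties at the equal list length were broken at random (seed 1). Regions were annotated with the GENCODE basic annotation of the same build. Soft-masking and bases within 100 bp of the summit came from the reference genome. Within each list, regions were ranked by score, uncalled regions shared the lowest rank, and ranks became normal scores. These were fitted with limma (3.58.1, R 4.3.3) with 1 mean per group over the 12 libraries. The test covered regions with a call in 3 or more lists, with Benjamini-Hochberg adjustment, and an adjusted p under 0.01 was the threshold. Both procedures were tested on simulated data.

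Named regions, none on chromosome 18, were the 10 with the largest differences between the ages, those nearest to a listed gene, the 10 protein-coding promoters with the largest differences, the 3 smallest inside and the 3 largest just outside the rule, and the 3 with the largest genotype difference in each direction. The regions, gene lists, motifs and tests were chosen with earlier results of these data known. Some markers are not reported here. Shares carry exact (Clopper-Pearson) 95% intervals.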

Additional observations from a re-analysis of the deposited data

Results flagged for a closer look

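In all, 28 sets of 6 values, each from 1 age, were examined for a library far from the others, and 5 were found. Most sets were the normal scores of the aged libraries at 1 named region. The young libraries were examined only by measures over all the opened regions. Chance alone gives about 1 in 20 sets, a rate that need not hold for regions chosen by their values. Young Mlkl-/- replicate 2 held 158 of the 990 regions, where the next young library held 74. Aged WT replicate 2 held 750, where the next aged library held 902, and 909 in the unreduced lists, where the next held 971. At the region near Gm16042 aged Mlkl-/- replicate 3 had a normal score of 1.94, where the other aged libraries were at 1.06 to 1.13. At the Neu2 promoter aged WT replicate 2 had a normal score of -0.74, the value of a region without a summit, and the other aged libraries were at 0.38 to 0.85.

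Chromosome X was outside the rule. Treated in the same way, 21 of its 1341 regions (1.57%) were opened at 18 months and 13 (0.969%) were lost, against 1.93% and 1.40% on the autosomes.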

How the results depend on the processing

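The equal list length and the number of lists required set how many regions were opened. With lists of unequal length there were 2721, which overlapped 53.8% of the 990. With 6 of 6 aged and 0 of 6 young lists there were 259. For the tagged set and for libraries left out in turn or together, all but 1 of the aged lists kept and at most 1 young list were required. That demand is looser, so most of the 990 had to pass again and higher counts followed from the rule. With only the 9 libraries whose files carry an unexplained tag there were 1999, and their inclusion of all 990 was fixed in advance. Without young Mlkl-/- and aged WT replicate 2 together, an alternative chosen after seeing the data, there were 1875. Leaving out each library in turn gave 1133 to 1432, the highest without aged WT replicate 2. These counts are not read as effects of the libraries. With scores of 5 or more there were 895 regions, which covered 54.7% of the 990. All deposited scores, windows of 100 bp, another seed and the choice of young lists without Y-linked summits, which was also made after seeing the data, covered 84.4% to 99.2%. For that choice of young lists the overlap followed almost wholly from the rule.

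The share within 1 kb of a start was 10.9% with scores of 5 or more, 11.2% with unequal lists, 11.1% with the tagged libraries, 5.79% in the 259 and 6.26% when 500 bp was the limit, and 7.61% to 9.71% without single libraries. The share over 50 kb was 16.1% with scores of 5 or more and 23.6% in the 259, and 17.5% to 19.7% without single libraries. The share in repeats stayed within its interval. Within 50 bp of the summit 13.6% of the regions held RUNX and 11.6% AP-1 letters, against 7.03% and 6.30% of all regions. Listed genes within 100 kb gave 18 pairs of an opened region and a list, and the nearest protein-coding gene gave 12. The planned use of young lists without any Y summit was not run, because all 12 lists held one.

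Genotype calls were 0 under every setting, including an adjusted p under 0.05, 0 without each library in turn and 0 with the replicate block. Deviations of same-numbered libraries correlated at -0.32 to 0.14, with 1 of 18 pairs over 0.1. Libraries with different numbers were not compared, so whether the numbers pair the libraries cannot be told from this.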
